A study of Mus musculus with 18 samples.

Results

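The core circadian clock genes are Arntl, Clock, Per1, Per2, Per3, Cry1, Cry2, Nr1d1, Nr1d2 and Dbp, grouped by their textbook role. Each was read by the brightest probeset annotated to that gene alone, and all 10 were found among the 19937 genes of the array table. Each had 1 such probeset. Levels are the deposited log2 expression values, so a difference of 1 is a doubling. RNA came from whole mouse hypothalamus on 18 arrays, of a line mutant for Wfs1, the gene for wolframin, a membrane protein of the endoplasmic reticulum, and its wild type. The labels give the background as 129SV and the series text as 129S6, and every array shares it. They give no sex, age or hour of collection, and do not describe the Wfs1 allele. The labels do not say that arrays come from different mice, so p-values here speak only of how much arrays vary, which may be partly technical.

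Every array has 2 genotype labels that often disagree, an ending of its title (ko or wt) and a genotype field (KO or WT). Written as ending/field, there were 5 ko/KO, 4 wt/WT, 5 ko/WT and 4 wt/KO arrays. In the order of the records the field alternates KO and WT from array to array without a break. The endings instead follow the number just before them in the title, every ko number being lower than every wt number. Which label is right was not settled here. Results by field, where both labels agree and for the interaction all carry this doubt. The Wfs1 level was 8.31 ± 0.31 (SD) on the 10 arrays ending in ko, against 8.12 ± 0.25 (SD) on the 8 ending in wt. It is thus not lower on arrays labelled as mutant, and each direction below is one between arrays labelled that way. Whether its probes lie in a deleted stretch is not known here. Array medians ran from 7.10 to 7.19 and array SDs from 1.93 to 2.04. On every array 10 of 10 measured hypothalamic regional genes and 11 of 12 hypothalamic neuropeptide genes lay above that array's lower quartile, Crh being the exception. So did 10 of 10 thalamic genes, which mark a neighbouring region, 10 of 11 cortical and striatal genes and 9 of 10 choroid plexus genes. This mark therefore does not tell regions apart. Above the median on every array lay 7 of 10 hypothalamic regional, 9 of 12 neuropeptide and 10 of 10 thalamic genes. A pair of arrays stood apart in single genes, ko/WT 4 with Xist at 5.93 and wt/WT 3 with Ttr, a choroid plexus gene, at 12.80.

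The mammalian clock is a loop of transcription and repression that runs in nearly every cell, with the suprachiasmatic nucleus of the hypothalamus as its pacemaker. The proteins of Arntl (BMAL1) and Clock pair and activate the Per, Cry, Nr1d and Dbp genes through E-boxes. PER and CRY proteins then return to the nucleus and repress that pair, while NR1D1 and NR1D2 (REV-ERB alpha and beta) repress Arntl through ROR elements. Through a day the Per, Nr1d and Dbp genes therefore peak in a different phase from Arntl, and samples taken at different hours show them moving against it. No such phase is stated here for Cry1 and Cry2. In tissue RNA, fewer cells of a type and less RNA per cell cannot be told apart.

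Promoter sequence is shown for Arntl, Cry1 and Cry2, whose levels were the most closely correlated across arrays, and for Per3, whose level is set against that of Wfs1 below. RefSeq windows (build GRCm38.p6, 250 bases before to 50 after the start) were at hand for 9 of the 10 genes, 13 windows in all. The motifs searched on both strands were the E-box CACGTG, its variant CACGTT, the D-box TTANGTAA and the ROR element, no matches of which overlapped in these windows. Capitals mark the matches.
Arntl, chr7:113207261-113207560, plus strand: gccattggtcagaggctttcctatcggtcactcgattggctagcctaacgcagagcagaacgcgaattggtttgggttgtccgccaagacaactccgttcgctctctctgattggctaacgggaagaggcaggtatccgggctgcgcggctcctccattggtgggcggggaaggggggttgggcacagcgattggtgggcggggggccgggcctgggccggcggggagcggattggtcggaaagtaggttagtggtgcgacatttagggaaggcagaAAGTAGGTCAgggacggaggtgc
Cry1, chr10:85185005-85185304, minus strand: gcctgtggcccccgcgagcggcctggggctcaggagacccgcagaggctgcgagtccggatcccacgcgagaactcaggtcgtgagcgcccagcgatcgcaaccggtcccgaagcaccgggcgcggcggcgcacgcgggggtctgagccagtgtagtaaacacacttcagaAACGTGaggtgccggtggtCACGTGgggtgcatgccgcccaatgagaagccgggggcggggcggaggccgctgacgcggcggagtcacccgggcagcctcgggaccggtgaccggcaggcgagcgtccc
Cry2, chr2:92434020-92434319, minus strand: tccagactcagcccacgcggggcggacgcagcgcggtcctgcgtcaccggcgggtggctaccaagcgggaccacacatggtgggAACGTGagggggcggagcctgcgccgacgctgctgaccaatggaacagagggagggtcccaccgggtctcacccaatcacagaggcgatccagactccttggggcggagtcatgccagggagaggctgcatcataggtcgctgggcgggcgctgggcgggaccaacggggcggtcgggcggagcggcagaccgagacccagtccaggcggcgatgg
Per3, chr4:151044616-151044915, minus strand: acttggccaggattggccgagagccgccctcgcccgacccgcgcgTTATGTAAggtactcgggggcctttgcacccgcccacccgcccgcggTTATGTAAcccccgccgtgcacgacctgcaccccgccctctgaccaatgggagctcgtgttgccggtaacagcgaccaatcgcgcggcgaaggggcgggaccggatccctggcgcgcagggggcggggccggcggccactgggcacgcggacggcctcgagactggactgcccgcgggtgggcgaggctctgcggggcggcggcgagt
The Cry1 window holds an E-box beginning 60 bases before the start and the E-box variant, in reverse orientation, at 79 bases. The Cry2 window holds the variant, also reversed, at 166 bases before the start. The Per3 window holds the D-box, the element bound by DBP and its relatives, at 205 and at 158 bases before the start. The ROR element of Arntl begins 28 bases after the start of the second of its 2 listed start sites. Among the windows not printed, Per1 holds an E-box 166 bases before the start and Nr1d1 the E-box variant 28 bases before it, and the windows of Clock, Nr1d2 and Dbp hold none of these motifs. Of all 32851 mouse windows of this length, 7.15% hold the E-box, 4.68% the variant, 2.32% the D-box and 0.606% the ROR element. A match is a description of letters and was not tested for binding.

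All 10 clock genes varied little from array to array. On every array each of them lay above that array's median over all probesets. By mean level Nr1d1 was the brightest, above 95.5% of genes, and Per2 the dimmest, above 51.2%. The lowest Per2 value, 7.49, was under the median level of all genes, 7.598. The widest spread was that of Cry1, from 8.05 to 8.61, a range of 0.56 log2 units or 1.47-fold, and the narrowest that of Arntl, from 8.09 to 8.41, 0.32 units or 1.25-fold. The SD over the 18 arrays ran from 0.088 for Arntl to 0.126 for Dbp, where the median gene had 0.133. Every member thus varied less than the median gene, with Arntl at the 12.9th percentile of SD and Dbp at the 44.1st.

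Among the activators, Arntl had a median of 8.31, lowest on wt/WT 2 and highest on ko/WT 3. Clock ran from 9.07 on ko/KO 2 through a median of 9.38 to 9.58 on ko/KO 5. The next lowest Clock value after ko/KO 2 was 9.30. Among the repressors, Per1 ran from 8.39 through 8.59 to 8.85, Per2 from 7.49 through 7.67 to 7.88 and Per3 from 8.04 through 8.32 to 8.49. The highest Per2 and Per3 were both on ko/KO 1 and the lowest both on wt/WT 3. Cry1 (median 8.38) and Cry2 (9.28 through 9.56 to 9.69) were both lowest on wt/WT 4. The repressors of Arntl ran from 10.32 through 10.49 to 10.72 for Nr1d1 and from 10.19 through 10.38 to 10.55 for Nr1d2. Dbp, a transcription factor that carries the rhythm to output genes, ran from 9.79 through 9.98 to 10.25. The plot of levels by label group shows these values.

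**Figure D1:**
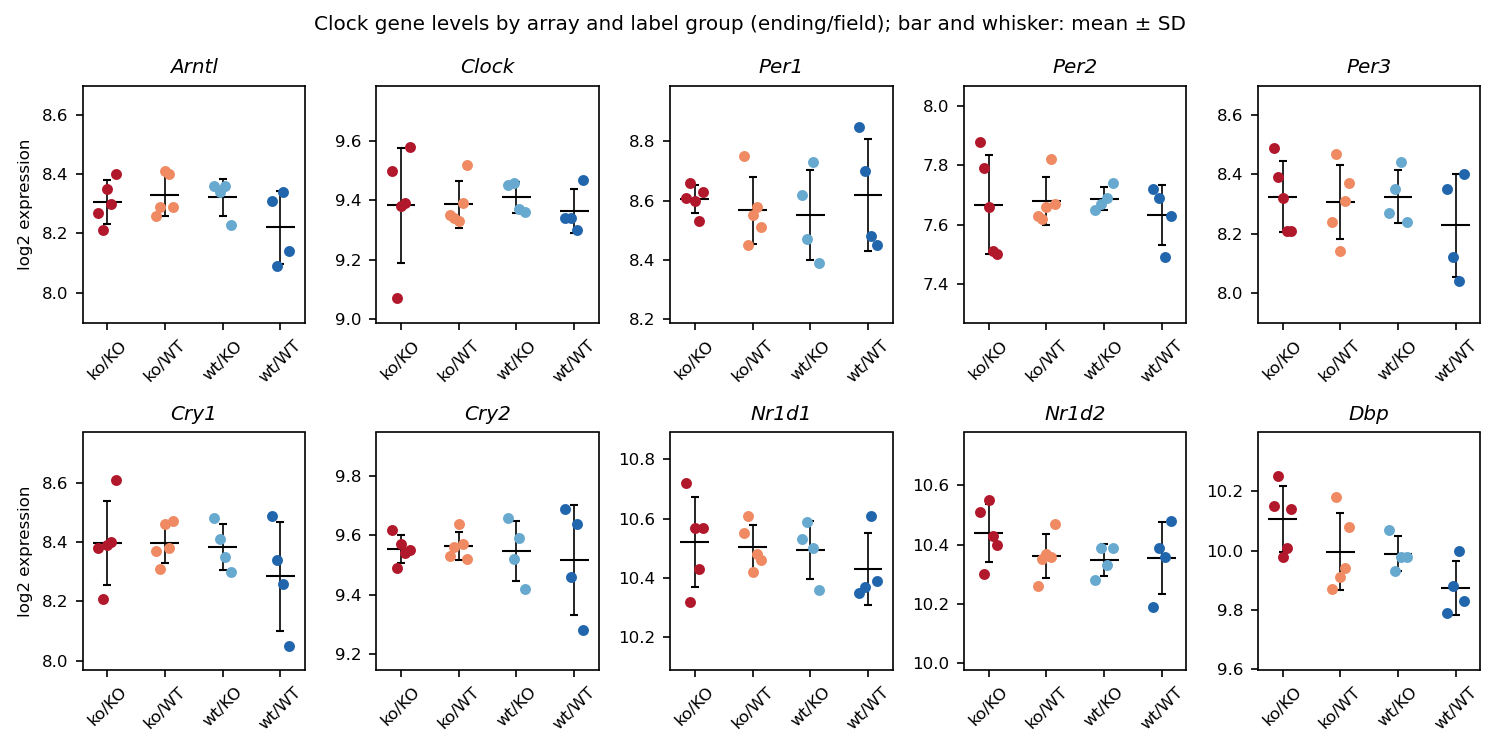
Log2 expression of each clock gene on each array (points) in the 4 label groups, written as title ending/genotype field, with mean and SD; each panel spans 0.8 log2 units. The groups overlap for all 10 genes, and the Clock value of 9.07 on ko/KO 2 lies apart from the rest.

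By genotype label, no clock gene passed the threshold, an adjusted p of 0.05 (limma, Benjamini-Hochberg over all 19937 genes). The comparison asks whether loss of Wfs1 moves the clock, as far as the labels allow. By title ending, 9 of the 10 members had a higher mean with ko and 1, Clock, a lower one, with a median log2 difference of 0.043 against 0.0030 over all genes. By genotype field, 9 were higher with KO and 1, Per1, lower, with a median of 0.036 against -0.0056. Limma called 0 of 10 members in each, and 0% of all genes were called in each (923 and 1386 genes at an unadjusted p under 0.05). Where both labels agree, 9 of 10 were higher on ko/KO and Per1 lower, with a median of 0.084 against -0.0015, and again 0 members and 0% of genes were called (2218 genes unadjusted). These comparisons share arrays and are not independent of each other. The counts of members higher also depended on the processing. After quantile normalization Clock, Per1 and Cry2 were lower with the mutant label in each comparison, and the other members higher by less than before.

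Dbp had the smallest p of the members in each comparison. Its values on the 5 ko/KO arrays were 10.15, 10.25, 9.98, 10.01 and 10.14. On the 4 wt/WT arrays they were 9.79, 9.88, 10 and 9.83. The groups overlap by 1 array, since wt/WT 3 lay above ko/KO 3. The arrays whose labels conflict lay between 9.87 and 10.18. Where the labels agree, the means were 10.11 ± 0.11 (SD, n = 5) and 9.88 ± 0.09 (SD, n = 4). That log2 difference was 0.23 (SE 0.081, limma adjusted p = 0.391, unadjusted 0.013). By title ending it was 0.12 (SE 0.056, limma adjusted p = 0.884), from 10.05 ± 0.13 (SD, n = 10) against 9.93 ± 0.09 (SD, n = 8), and by field 0.11 (SE 0.056, limma adjusted p = 0.694). Leaving out any 1 array kept the difference by ending between 0.096 and 0.14. After quantile normalization the Dbp difference was smaller, at 0.086 by ending, 0.085 by field and 0.17 where the labels agree.

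The other members differed by less. By title ending Arntl differed by 0.047 (SE 0.047), Cry1 by 0.063 (SE 0.058), Nr1d1 by 0.050 (SE 0.055) and Nr1d2 by 0.049 (SE 0.047). Per3 differed by 0.039 (SE 0.060), Cry2 by 0.026 (SE 0.050), Per2 by 0.014 (SE 0.053), Clock by -0.0012 (SE 0.055) and Per1 by 0.0008 (SE 0.059). Of these 9 each was smaller than its standard error or close to it, and adjusted p values ran from 0.885 to 0.997 (limma). By field the differences of these 9 ran from -0.0089 for Per1 to 0.053 for Per3, and where the labels agree from -0.014 for Per1 to 0.11 for Cry1. By title ending the sign of Per1 and of Cry2 turned after quantile normalization, at -0.026 and -0.0087, and that of Clock, Per1, Per2 and Cry2 when some 1 array was left out. An interaction term tested whether the difference by ending depended on the field, and called 0 members and 0% of genes (limma, lowest adjusted p among members 0.927, 1033 genes unadjusted).

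**Figure D2:**
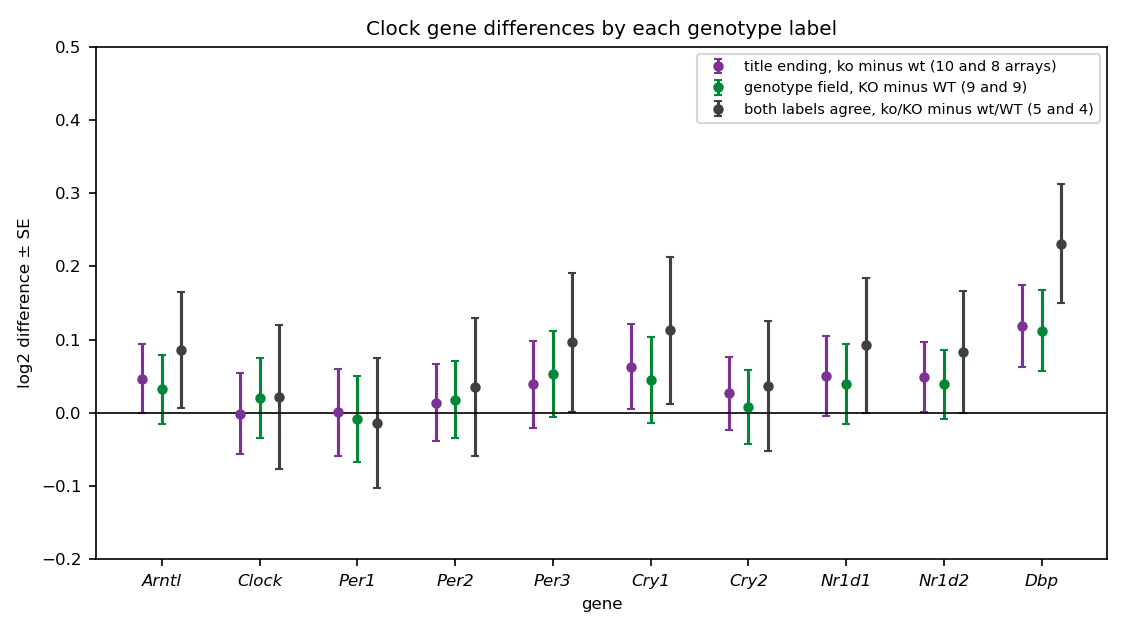
Log2 difference (mutant label minus wild-type label) of each clock gene with its standard error, by title ending, by genotype field, and on the 9 arrays where both agree. Dbp lies highest in each, at 0.12, 0.11 and 0.23, and the next highest value is 0.11, that of Cry1 where the labels agree.

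Other genes of the clock pathway gave the same count of calls. Of 21 listed, 18 were measured, among them the nuclear receptors Rora and Rorb, the Dbp relatives Tef and Hlf, the repressors Bhlhe40, Bhlhe41, Ciart and Nfil3, and kinases and ubiquitin ligases that act on PER and CRY. By title ending 14 were higher and 4 lower with a median of 0.058, and by field 12 were higher and 6 lower with a median of 0.026. Limma called 0 of 18 in each. Where the labels agree 13 were higher and 5 lower, 0 called. Bhlhe40 differed there by 0.24 (SE 0.099, limma adjusted p = 0.415), Rorb by 0.24 (SE 0.12, limma adjusted p = 0.469) and Fbxl21, a ubiquitin ligase subunit that binds CRY, by 0.17 (SE 0.071, limma adjusted p = 0.428), values chosen after they were seen. This list was drawn up with earlier results of these arrays known.

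Across arrays, the members' correlations are where a difference in phase would show. All 45 pairs were computed. Of these, 28 had a positive and 17 a negative Pearson r, with a median of 0.111 and a range from -0.530 to 0.702. Each gene was also regressed on each member with limma over all genes, and a pair was called where both regressions had an adjusted p of at most 0.05. By that rule 0 of 45 pairs were called. Taking the larger of each pair's limma adjusted p values, the lowest was 0.147. In a single regression the lowest was 0.107, for Arntl and Cry2. An unadjusted permutation p under 0.05 was found for 5 pairs (11.1%), 4 positive and 1 negative. The share of all genes called with a member was 0.01% for Arntl, 25.9% for Clock, 0.0251% for Cry1 and 0.00502% for Nr1d2, and 0% for Per1, Per2, Per3, Cry2, Nr1d1 and Dbp.

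**Figure D3:**
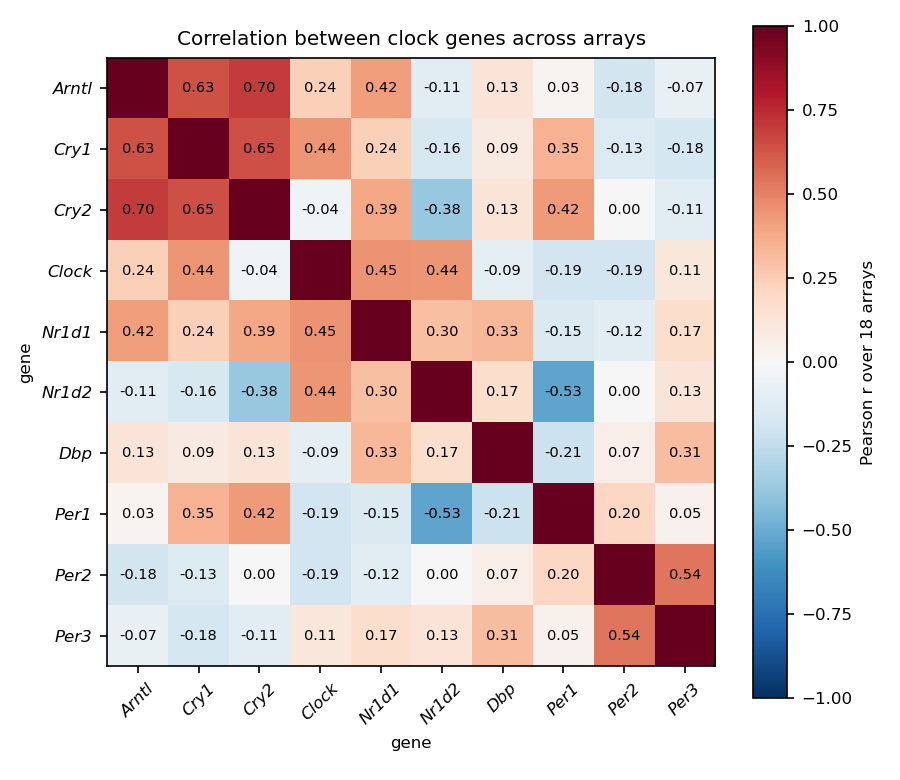
Pearson r over 18 arrays for each pair of clock genes, blue negative and red positive. Arntl, Cry1 and Cry2 form a block from 0.63 to 0.70, Per2 and Per3 a pair at 0.54, and Per1 with Nr1d2 is the lowest at -0.53.

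Arntl, Cry1 and Cry2 had the highest correlations of the members. For Arntl and Cry2, r was 0.702 (permutation p = 0.0015) and rho 0.686 (permutation p = 0.0021), and without the 2 arrays farthest from the median of Arntl r was 0.525. For Arntl and Cry1, r was 0.635 (permutation p = 0.0058) and rho 0.614 (permutation p = 0.0081), with 0.579 after the same omission. For Cry1 and Cry2, r was 0.647 (permutation p = 0.0062) and rho 0.475 (permutation p = 0.047), with 0.482 without the 2 arrays farthest in Cry1. The larger limma adjusted p over all genes was 0.294, 0.147 and 0.287 for these pairs. On wt/WT 4 Arntl was 8.14, Cry1 8.05 and Cry2 9.28, the lowest array for both Cry genes. Without that array the r of Cry1 and Cry2 was 0.359, while it was 0.506 for Arntl and Cry1 and 0.607 for Arntl and Cry2. Within the 4 label groups the 3 correlations were 0.723, 0.562 and 0.639.

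Many genes other than clock genes followed Arntl and Cry1 as closely. An r at least as large in size as that of Cry2 was found with Arntl for 1.27% of all genes, and one as large as that of Cry1 for 3.81%. At an unadjusted p under 0.05, 21.8% of all genes went with Arntl, 22.6% with Cry1 and 11.4% with Cry2. Arntl also correlated with the SD of all values on an array (r = 0.627, permutation p = 0.0062, adjusted over 150 relations 0.155). With the array median all of Cry1, Arntl and Cry2 correlated negatively. Cry1 had r = -0.661 (permutation p = 0.0030, adjusted over the 150 relations 0.114). Arntl had -0.584 (permutation p = 0.012, adjusted 0.180) and Cry2 -0.442 (permutation p = 0.066, adjusted 0.376). Without the 2 arrays farthest in the array measure, r was 0.279 for Arntl with the SD. With the median it was then -0.735 for Cry1, -0.688 for Arntl and -0.424 for Cry2. Quantile normalization gave the gene levels the same distribution on every array, while these array measures were taken over all probesets. After it, r was 0.491 for Arntl and Cry2, 0.493 for Arntl and Cry1 and 0.455 for Cry1 and Cry2. The part of array spread in these correlations was otherwise not tested.

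The pairs that a daily phase sets against each other did not show negative correlations past the threshold. Arntl and its repressor gene Nr1d1 had r = 0.419 (permutation p = 0.084) and rho = 0.333 (permutation p = 0.176), a positive value. With Nr1d2 Arntl had -0.114, with Per2 -0.182 and with Dbp 0.131, at permutation p values of 0.655, 0.469 and 0.605. After quantile normalization these 4 values were 0.076, -0.491, -0.325 and -0.074 in the same order, none called by limma. Within label groups that of Dbp was -0.140.

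Per2 and Per3, repressor genes that peak in a different phase from Arntl, had r = 0.539 (permutation p = 0.021) and rho = 0.401 (permutation p = 0.099). Without the 2 arrays farthest from the Per2 median r was 0.243, without the 2 farthest from the Per3 median 0.477, and with any 1 array left out 0.410 to 0.621. With the Wfs1 level as a covariate it was 0.101. Per1 went with neither, at 0.204 with Per2 and 0.046 with Per3. Per1 and Nr1d2 had the lowest r, -0.530 (permutation p = 0.024, rho = -0.465, permutation p = 0.054), and -0.384 without the 2 arrays farthest in Per1. Without wt/WT 1, where Per1 was highest at 8.85 and Nr1d2 lowest at 10.19, it was -0.345, and after quantile normalization -0.379.

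**Figure D4:**
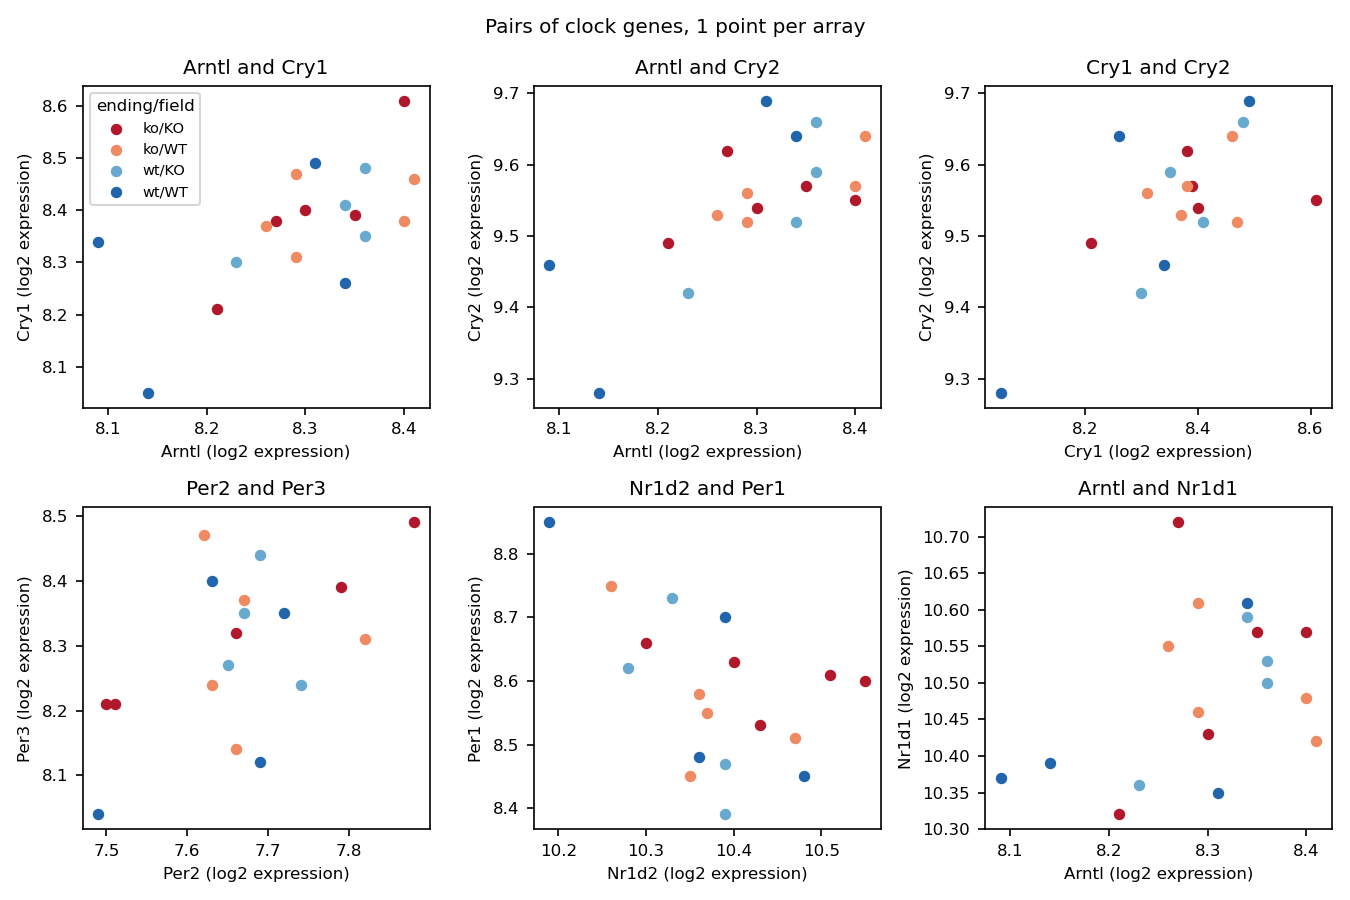
Log2 expression of 6 pairs of clock genes, 1 point per array, coloured by label group. The array lowest in both Cry genes is wt/WT 4, without which the r of Cry1 and Cry2 was 0.359, and Arntl with Nr1d1 has a positive r of 0.419.

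Clock was the member whose level ran with the most genes. Of 19936 other genes 5169, or 25.9%, were called with it, 2773 of them in the positive direction. Of the 18 other clock genes 3, or 16.7%, were called, which is below that share. They were Bhlhe41 (r = 0.738, permutation p = 0.0012, limma adjusted p = 0.0049), the kinase gene Gsk3b (r = 0.775, permutation p = 0.00027, limma adjusted p = 0.0068) and the kinase gene Csnk2a1 (r = 0.585, permutation p = 0.019, limma adjusted p = 0.031). Their rho was 0.807, 0.803 and 0.739, and r without the 2 arrays farthest in Clock was 0.746, 0.579 and 0.627. The count of 3 became 5 without ko/KO 2, with Bhlhe40 and Fbxl21 added. Of all genes 20.8% were called there, so that count lay above the share. After quantile normalization 7.78% of all genes and 2 of the 18 were called, so the count was then above the share. Gsk3b (r = 0.649) and Csnk2a1 (r = 0.382) were no longer called, Bhlhe41 was (r = 0.642), and the kinase gene Csnk1e was called in the negative direction (r = -0.777, against -0.243 before). The cause of that shift was not tested. Without ko/KO 5, highest in Clock, 16.3% of all genes were called, and of the 18 only Bhlhe41 and Gsk3b.

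Beside this, Clock correlated with the array SD at 0.572 (permutation p = 0.017), and the array ko/KO 2, lowest in Clock, had an SD of 1.95 against 1.93 to 2.04 on all arrays. It correlated at 0.686 with the summed level of 10 of 10 astrocyte markers (permutation p = 0.0018) and at 0.682 with that of 8 of 8 endothelial markers (permutation p = 0.0025), each 0.114 when adjusted over 150 relations. Those sums ran from 102.8 to 105.6 and from 63.7 to 66.5, and none of these markers fell below the lower quartile of an array. Their part in the Clock correlations was not tested. Nr1d1 went with the same lists, at 0.622 and 0.647 (permutation p = 0.0053 and 0.0030, adjusted 0.155 and 0.114). So did Arntl, at 0.593 and 0.528 (permutation p = 0.011 and 0.024, adjusted 0.180 and 0.215), though less steadily. Without the 2 arrays farthest from the median of each sum, r was 0.261 and 0.091 for Arntl. After the same omission r was 0.510 and 0.490 for Clock and 0.454 and 0.503 for Nr1d1. The rho of Arntl was 0.458 and 0.331 (permutation p = 0.058 and 0.179). Nr1d1 correlated at 0.549 with the sum of 10 thalamic genes (permutation p = 0.019, adjusted 0.192) and at 0.559 with that of 11 cortical and striatal genes (permutation p = 0.017, adjusted 0.183), and Cry2 at 0.495 with the latter (permutation p = 0.036, adjusted 0.266). Clock correlated at -0.581 with the sum of 10 hypothalamic regional genes (permutation p = 0.013, rho = -0.649, adjusted 0.180). Those sums ran from 95.3 to 99.8, 86.1 to 88.6 and 74.3 to 77.6, and of these genes Neurod6, a cortical one, was not above the lower quartile on every array. Nr1d2 went with 15 oligodendrocyte markers at 0.573 (permutation p = 0.013, adjusted 0.180). The part of these lists in the members' correlations was not tested. Summed levels of 11 of 11 suprachiasmatic nucleus genes, such as Vip and Avp, correlated with the members between -0.493 for Clock and 0.314 for Cry2, none below 0.266 after adjustment. Of all 150 relations between members and marker sums or array measures, 21 had a permutation p under 0.05 and 0 passed after adjustment.

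For the members other than Clock, 0 of the 18 other pathway genes were called with all 18 arrays. Leaving out some single arrays gave calls with Cry1 or Nr1d2, listed further below. The highest r were those of Nr1d1 with Rorb (r = 0.736, permutation p = 0.00062, rho = 0.727, limma adjusted p = 0.150) and of Dbp with the E-box repressor gene Bhlhe40 (r = 0.702, permutation p = 0.0013, rho = 0.719, limma adjusted p = 0.479). Cry2 followed with Csnk1e (r = 0.683, limma adjusted p = 0.298) and Tef (r = 0.681, limma adjusted p = 0.329), and then Nr1d2 with Rorb (r = 0.674, permutation p = 0.0019, rho = 0.605, limma adjusted p = 0.147). The lowest adjusted p was that of Cry1 with Ciart (r = 0.581, limma adjusted p = 0.133). Only 0.361% of all genes had an r with Nr1d1 as large in size as that of Rorb, and 0.191% one with Dbp as large as that of Bhlhe40. Without the 2 arrays farthest in the member, r was 0.680 for Nr1d1 with Rorb, 0.834 for Dbp with Bhlhe40, 0.340 for Cry2 with Csnk1e, 0.485 for Nr1d2 with Rorb and 0.295 for Cry1 with Ciart. Per1 had its lowest r with Csnk2a1, at -0.643 (permutation p = 0.0038, rho = -0.521, limma adjusted p = 0.942). These pairs were named after their values were seen.

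The Wfs1 level fell into separate clusters, with 10 arrays from 7.86 to 8.07 and 8 from 8.36 to 8.72, on either side of 8.2 log2 units. These sides are cut from a measured value and stand for no genotype label, so levels on them are described and not tested. The lower side held 2 ko/KO, 2 ko/WT, 3 wt/KO and 3 wt/WT arrays, and the upper side 3, 3, 1 and 1. Per3 differed most. On the 10 arrays of the lower side it ran from 8.04 through a median of 8.22 to 8.35, and on the 8 of the upper side from 8.31 through 8.39 to 8.49. Of the 8 upper arrays 6 lay above all 10 lower ones, and the sides overlap between 8.31 and 8.35. Over all 18 arrays Per3 correlated at 0.512 with the oligodendrocyte sum (permutation p = 0.029) and at -0.507 with the choroid plexus sum (permutation p = 0.027), adjusted over the 150 relations 0.229 and 0.223, and their part was not tested. The sides of 0 of the 10 members were free of overlap, as were those of 0.015% of all genes (3 of 19936).

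Dbp ran from 9.79 through 9.96 to 10.14 on the lower side and from 9.83 through 10.03 to 10.25 on the upper. Per2 ran from 7.49 through 7.66 to 7.74 and from 7.62 through 7.68 to 7.88. For these genes 3 upper arrays lay above all lower ones. Nr1d2 ran from 10.19 through 10.38 to 10.43 and from 10.30 through 10.41 to 10.55, with 4 upper arrays above all lower ones. The medians of the other 6 members differed between sides by 0.005 for Per1 to 0.040 for Cry1 in size, and the sides of each overlapped. In the opposite direction, 4 lower arrays lay above all upper ones for Cry2 and 3 for Cry1, and 2 upper arrays lay below all lower ones for Cry1.

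Within each side, the relation of each member to the Wfs1 level was tested, 20 relations in all. On the lower side (n = 10) Per2 had r = 0.763 (permutation p = 0.012, adjusted over the 20 0.126) and rho = 0.681 (permutation p = 0.035, adjusted 0.348). There Nr1d1 had r = -0.769 (permutation p = 0.013, adjusted 0.126) and rho = -0.742 (permutation p = 0.018, adjusted 0.348). Without the 2 arrays farthest from the Wfs1 median these r were 0.444 and -0.653, and with any 1 array of that side left out 0.678 to 0.868 and -0.859 to -0.709. On the upper side (n = 8) Per2 had 0.571 (exact permutation p = 0.142) and Nr1d1 0.263 (exact permutation p = 0.527). Per3 had 0.099 on the lower side (permutation p = 0.782) and 0.694 on the upper (exact permutation p = 0.067, adjusted 0.436). Thus 2 of 20 relations had an unadjusted p under 0.05, 4 of 20 when ko/KO 1 or ko/KO 2 was left out, and 0 passed after adjustment. Over all members r ran from -0.769 to 0.763 on the lower side and from -0.451 to 0.694 on the upper.

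**Figure D5:**
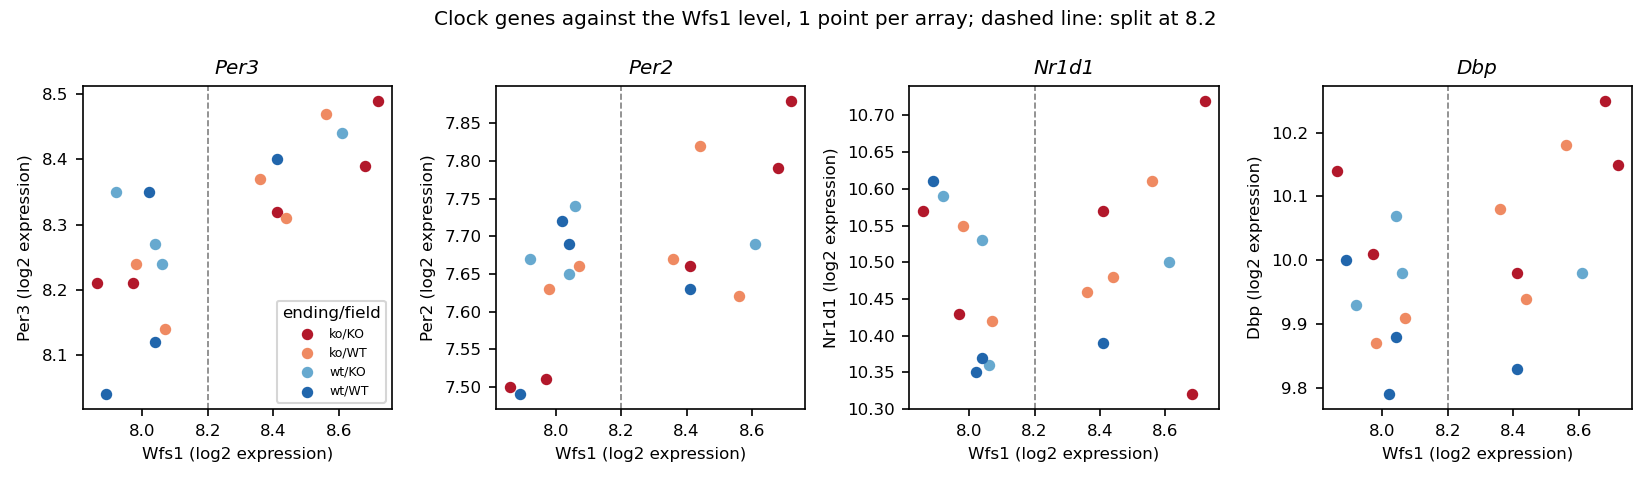
Log2 expression of Per3, Per2, Nr1d1 and Dbp against that of Wfs1, 1 point per array coloured by label group, with the split at 8.2 as a dashed line. Per3 runs from 8.04 to 8.35 left of the line and from 8.31 to 8.49 right of it, and each side holds arrays of all 4 label groups.

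For each member, the genes of at least median brightness with the most similar pattern over the 18 arrays were listed by Pearson r. For Arntl they were Ppp1r11 (0.868), Paxip1 (0.845) and Gps2 (0.829), and for Clock Ccser2 (0.938), Phf3 (0.934) and Armh4 (0.933). For Cry1 they were Zbtb25 (0.874), Nom1 (0.872) and Spats2 (0.843), of which Zbtb25 and Nom1 passed over all genes (limma adjusted p = 0.017 each). For Cry2 they were Mta1 (0.880), Pgbd5 (0.856) and Map3k11 (0.826). Nr1d1 was nearest to Tns3 (0.842), Fstl1 (0.818) and Gprc5b (0.813), and Nr1d2 to Mapk8 (0.808), Micos10 (0.798) and Gpcpd1 (0.796). Per1 was nearest to Kmt2b (0.853), Wwp2 (0.777) and Cul7 (0.738). Per2 was nearest to Asic1 (0.841), an acid-sensing ion channel gene, then Cdk18 (0.777) and Pcsk6 (0.756). Per3 was nearest to Uhrf2 (0.794) and Fv1 (0.787), a retrovirus restriction gene, followed by Wfs1, for which no pooled value is given because of its clusters. Dbp was nearest to Mid1ip1 (0.775), Nrep (0.756) and Tmub2 (0.741). None of these lists holds another clock gene.

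At the other end, the lowest r of Dbp were with Zfyve28 (-0.796) and Sgk1 (-0.700), a kinase gene induced by glucocorticoids. Those of Per3 were with Fbln5 (-0.777) and Heyl (-0.699), of Per2 with Tceal8 (-0.779) and Ggact (-0.735), and of Per1 with Aif1l (-0.777) and Rfk (-0.774). Nr1d1 was lowest with Mettl23 (-0.757) and Lgalsl (-0.737), and Nr1d2 with Ccdc85b (-0.838) and Tmem8b (-0.817). Arntl was lowest with Krtap9-3 (-0.812) and Mir540 (-0.783), Clock with Snord55 (-0.909) and Slc25a10 (-0.900), Cry1 with Iqank1 (-0.825) and Krtap17-1 (-0.797), and Cry2 with Rrs1 (-0.767) and Mir680-3 (-0.707). Of these 20 genes the 2 of Clock passed over all genes.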

How the data were processed

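Values were the log2 expression levels per probeset that the authors deposited. Per the submitters' processing notes RMA and MAS5 were used, with no role or version given. That the values are log2 and normalized was read from their range, 1.11 to 14.54, and their like medians. Per the labels' protocols, total RNA was labelled with biotin as sense-strand target. Scan files were not analysed here, which leaves background and scan batches unseen. Precision is limited by the 18 arrays.

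Of 34760 probesets, 21640 had 1 gene symbol, 1321 several and 11799 none in the platform annotation. Single-symbol probesets gave 19937 genes, by the brightest probeset. Differences and regressions were fitted with limma 3.58.1 (R 4.3.3) without covariates and checked on simulated data. Correlations used 100000 permutations, or all orders with fewer than 10 arrays (Python 3.11.15, scipy 1.17.1). Named genes were the members, other clock genes called with a member, and per member the 3 highest and 2 lowest correlations, passing over predicted genes and genes under the median level of 7.598. Members and lists were chosen with earlier results of these data known. Alternatives were quantile normalization, the mean of probesets, leaving out the dimmest 40% of genes, each array left out, and label groups or Wfs1 as a covariate. RefSeq gave the promoters.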

Additional observations from a re-analysis of the deposited data

Results flagged for a closer look

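In 6 of the 80 combinations of gene and label group, 1 array lay farther from the rest than Dixon's test allows at the 95% level. Chance gives about 1 in 20, and an array counts in several groups. Clock was 9.07 on ko/KO 2, below the next values of 9.33 with the ending ko and 9.36 with the field KO. Per2 was 7.82 on ko/WT 4, above 7.67 in its group, and 7.49 on wt/WT 3, below 7.63 with the ending wt. Arntl was 8.23 on wt/KO 4, below 8.34, and Nr1d1 was 10.61 on wt/WT 3, above 10.39. The arrays ko/WT 4 and wt/WT 3 are also those low in Xist and high in Ttr.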

How the results depend on the processing

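No paired analysis was possible because replicate numbers were given in accession order and pair nothing. Of 60 results under up to 24 alternatives, the counts of genes called by each label stayed at 0 in every one run. Leaving out 1 array gave 0 to 1 positive pairs called and 2 to 5 other clock genes called, with 16.3% to 28.0% of all genes called with Clock. The pair was Clock and Cry1 without wt/WT 4, where that share was 28.0%. Not all the calls of other clock genes were with Clock. Bhlhe41 was called with Cry1 without wt/WT 1 (r = 0.675) and without wt/WT 4 (r = 0.639). Csnk2a1 was called with Nr1d2 without ko/KO 3 (r = 0.723). The shares of all genes called with Cry1 and Nr1d2 in those runs are not given here. Wfs1 relations with p under 0.05 numbered 2 to 4. Without the dimmest 40% of genes 5 other clock genes were called, Arntl2 and Rorb added. Of all genes 35.6% were then called with Clock, so the count lay below that share. Differences near 0 turned sign when 1 array was left out. By title ending the ranges were -0.0229 to 0.0338 for Clock, -0.0273 to 0.0384 for Per1, -0.0103 to 0.0333 for Per2 and -0.0096 to 0.049 for Cry2. By field they were -0.0031 to 0.0607, -0.0274 to 0.0235, -0.0076 to 0.0399 and -0.0251 to 0.0261. Where the labels agree they were -0.0275 to 0.10, -0.0707 to 0.0627, -0.0175 to 0.0775 and -0.0427 to 0.094. Quantile normalization turned Per1 (-0.026) and Cry2 (-0.0087) by ending, Clock (-0.0073) and Cry2 (-0.018) by field, and Clock (-0.0422) and Cry2 (-0.0276) where the labels agree. Without both ko/WT 4 and wt/WT 3, an alternative chosen after seeing the data, Per1 by ending was -0.0137, Per2 by ending -0.0265 and Per2 where the labels agree -0.012. The r of Arntl and Dbp was -0.074 after quantile normalization, -0.14 with label groups, and -0.022 to 0.303 with 1 array left out, and that of Arntl and Nr1d2 -0.213 to 0.014. With 1 array left out, Per3 and Wfs1 on the lower side gave -0.273 to 0.295 and Nr1d1 and Wfs1 on the upper side -0.224 to 0.754. The cause of these turns was not tested.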

Other observations

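Dbp was negatively correlated with most listed genes that glucocorticoids induce. Of 10 measured genes of that list 8 had a negative r with Dbp over the 18 arrays, with a median of -0.355 where all genes had -0.020. Sgk1 (8.29 to 9.41) was at -0.700, Fkbp5 (8.04 to 8.59), a co-chaperone of the receptor, at -0.648 and Plin4 at -0.579, while Tsc22d3 was at 0.060. The summed level of the list correlated with Dbp at -0.597 (permutation p = 0.0092, adjusted over 150 relations 0.180; rho = -0.514) and at -0.609 without the 2 arrays farthest from its median. The sum ran from 85.7 to 90.4 with the ending ko and from 87.0 to 89.1 with the ending wt. The relation does not pass after adjustment.

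Per3 and Fv1, a gene close to it in pattern, both lie on chromosome 4, with 51 protein-coding genes between them in the RefSeq table of GRCm38.p6. Uhrf2, the gene nearest to Per3 in pattern, lies on chromosome 19. Among the members, Arntl and Dbp share chromosome 7, Per1 and Nr1d1 chromosome 11, and Clock lies on chromosome 5 with Wfs1.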
